A study of Mus musculus with 9 samples.

Results

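The genes described here are 8 genes of cortical glutamatergic neurons, measured in the mouse striatum. They are *Slc17a7*, *Neurod6*, *Neurod2*, *Tbr1*, *Emx1*, *Cux2*, *Rorb* and *Fezf2*, chosen by symbol for their known expression in the cortex, and 8 of 8 were found among the 15464 genes of the table. The study used RNA-seq to ask how the dose of *Shank3*, which encodes a scaffold protein of excitatory synapses, affects gene expression in the striatum. The 9 male mice were 3 wild-type (WT), 3 heterozygous (HET) and 3 knock-out (KO) littermates of the *Shank3B* line on the C57BL/6J background, aged 10 to 12 weeks. The *Shank3B* allele targets some exons of the gene, so that transcripts holding the other exons can remain in the HET and KO mice. The striatum of 1 mouse made 1 library, and how its border to the cortex was cut is not given in the sources used here. The deposited values are normalized counts, the estimated read counts of a gene divided by a scaling factor of the library, and the depth in reads is unknown.

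Cortical glutamatergic neurons send their axons into the striatum, while their cell bodies, which hold most of their mRNA, lie in the overlying cortex. The principal neurons of the striatum are medium spiny neurons, which release GABA, carry dopamine receptors and descend from another part of the embryonic forebrain. *Slc17a7* encodes VGLUT1, the transporter that loads glutamate into synaptic vesicles of cortical neurons. *Neurod6*, *Neurod2*, *Tbr1* and *Emx1* encode transcription factors of the cortical glutamatergic lineage, and *Cux2*, *Rorb* and *Fezf2* encode transcription factors enriched in the upper layers, layer IV and the deep layers of the cortex, respectively.

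All 8 members are protein-coding genes of the GRCm38 genome. *Slc17a7* (ENSMUSG00000070570) lies on the plus strand at chr7:45163949-45176142, *Neurod6* (ENSMUSG00000037984) on the minus strand at chr6:55677822-55681263 and *Rorb* (ENSMUSG00000036192) on the minus strand at chr19:18930605-19111196. The stretches of 250 bases before a RefSeq start (GRCm38.p6, 5′ to 3′ on the gene's strand) are printed for these 3 genes, whose windows overlap no annotated exon. They are shown because *Slc17a7* and *Neurod6* moved together across the libraries, and *Rorb* did so less closely. Capitals mark CANNTG, the E-box read by factors of the Neurod family, and the windows are chr7:45163671-45163920, chr6:55681264-55681513 and chr19:19111197-19111446.
Slc17a7: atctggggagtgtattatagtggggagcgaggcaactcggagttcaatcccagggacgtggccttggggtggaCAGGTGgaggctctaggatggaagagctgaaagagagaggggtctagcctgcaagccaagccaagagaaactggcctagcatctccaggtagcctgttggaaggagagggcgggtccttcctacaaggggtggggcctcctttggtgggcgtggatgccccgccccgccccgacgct
Neurod6: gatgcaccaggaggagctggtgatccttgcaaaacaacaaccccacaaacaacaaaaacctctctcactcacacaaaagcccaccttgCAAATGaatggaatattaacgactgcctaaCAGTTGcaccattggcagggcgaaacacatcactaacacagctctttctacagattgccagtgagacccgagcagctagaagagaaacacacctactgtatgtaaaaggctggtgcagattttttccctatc
Rorb: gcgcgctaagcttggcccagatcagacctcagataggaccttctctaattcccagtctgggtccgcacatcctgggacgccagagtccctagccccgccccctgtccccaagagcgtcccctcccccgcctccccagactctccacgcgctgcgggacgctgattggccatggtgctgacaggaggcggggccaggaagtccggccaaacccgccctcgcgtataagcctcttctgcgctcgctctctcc
CANNTG, which is the same on both strands, was present 1 time in the *Slc17a7* window, 2 times in the *Neurod6* window and 0 times in this *Rorb* window. Another *Rorb* window, chr19:19001118-19001367, is not printed. It also overlaps no annotated exon and held CANNTG 2 times, as many as the *Neurod6* window. Of the 10 windows that matched the 8 members, 8 held CANNTG, against 66.2% of all 32851 windows of the same length. CATCTG or its reverse CAGATG, a subset of CANNTG, was in 2 of the 10 member windows, in *Neurod2* and *Cux2*, against 14.4% of all windows. TAATTA, a core read by homeodomain factors, was in the *Tbr1* window and in 4.84% of all windows. A match describes the letters of the window and is not a binding site.

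The labels and the condition of the libraries were looked at first. Normalized counts summed to 30830020 to 33790296 per library. Over all genes tested, HET replicate 3 and KO replicate 3 stood apart from the other 7 libraries on the leading principal component (33.6% of the variance). Most correlations with *Slc17a7*, and the members' fold changes that turned sign, are therefore also given without this pair. Fold changes of the gene lists are given only with it. *Shank3* itself had 6043 to 8812 normalized counts in WT, 7098 to 8050 in HET and 10237 to 10798 in KO. These are totals over the whole gene, higher in the 3 KO libraries than in the other 6, and cannot check the loss of the targeted exons. The genotypes are those of the labels throughout. The medium spiny neuron markers were high in every library: *Ppp1r1b* (DARPP-32) lay between 12449 and 31982 normalized counts and *Drd1* between 2370 and 5086. *Ttr*, the defining marker of choroid plexus, was at 0 to 26.6 normalized counts. The labelled tissue, striatum, therefore carried its own markers at high levels in all 9 libraries.

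The 8 members were present in every library. Their order was compared per kilobase of exon, as normalized counts per kb (mean ± SD, n = 9 libraries). *Slc17a7* was highest at 6327 ± 948, above 99.1% of the genes tested. *Neurod6* had 731 ± 169 and *Tbr1* 661 ± 106, means within their SDs of each other. An SD here is the spread of a gene over the libraries, not that of the difference between genes in the same library. *Neurod2* followed with 489.9 ± 57.9. *Fezf2* with 210.5 ± 33 and *Cux2* with 205 ± 40.6 were again within their SDs of each other, and *Emx1* with 138 ± 21.1 and *Rorb* with 93.0 ± 12.1 were lowest. On the same per-kb scale *Ppp1r1b* had 7719 ± 2003, *Drd1* 1038 ± 279 and *Slc17a6*, which encodes VGLUT2, the vesicular transporter of thalamic neurons, 61.8 ± 15.1.

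The vesicular transporter gene *Slc17a7* had 30867, 32622 and 39129.9 normalized counts in WT replicates 1 to 3, 26609, 37282 and 33641 in HET replicates 1 to 3, and 29713, 33842 and 43336 in KO replicates 1 to 3. WT replicate 3, HET replicate 2 and KO replicate 3 were its high libraries, 1 of each genotype, and the highest library had 1.63 times the value of the lowest, HET replicate 1. *Tbr1*, which encodes a T-box factor of early-born cortical neurons, had 3133, 3309 and 4316 in WT, 2919, 4379 and 3589.5 in HET, and 3067, 3594 and 4351 in KO. The same 3 libraries were high, and HET replicate 1 was again lowest.

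Among the basic helix-loop-helix genes, *Neurod6* had 1271, 1759 and 2129.6 normalized counts in WT replicates 1 to 3, 1052, 1712 and 1537 in HET, and 1251, 1421 and 2021 in KO. It had the widest span of the 8 members, 2.02 times from HET replicate 1 to WT replicate 3. *Neurod2* (ENSMUSG00000038255, chr11:98325415-98329648, minus strand) had 1636, 1260.2 and 1748 in WT, 1511, 1660.3 and 1283 in HET, and 1758, 1468 and 1529.7 in KO. Its span was the narrowest, 1.40 times, and its high libraries were KO replicate 1 and WT replicate 3. *Emx1* (ENSMUSG00000033726, chr6:85187438-85204462, plus strand), a homeobox gene of the cortical progenitor zone, had 296, 279 and 340.2 in WT, 293, 391 and 241 in HET, and 330.3, 255 and 289 in KO. HET replicate 2 was its highest library and HET replicate 3 its lowest.

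Of the layer genes, *Cux2* (ENSMUSG00000042589, chr5:121856366-122050102, minus strand) had 1914, 2327 and 2411 normalized counts in WT replicates 1 to 3, 1482, 2075 and 1992 in HET, and 1767, 1811 and 2858 in KO. KO replicate 3 stood above the other 8 libraries. *Rorb*, which encodes a nuclear receptor of layer IV neurons, had 873, 1034 and 1039 in WT, 943, 1046 and 1127 in HET, and 984, 905 and 1318 in KO. KO replicate 3 and HET replicate 3 were its highest libraries. *Fezf2* (ENSMUSG00000021743, chr14:12342094-12348189, minus strand), a zinc-finger gene that specifies subcortically projecting neurons of layer V, had 571, 588 and 868 in WT, 551, 599 and 629 in HET, and 698, 569 and 699 in KO. Its values were high in WT replicate 3, while HET replicate 1 was lowest. *Tbr1* (ENSMUSG00000035033) lies at chr2:61802930-61814114 on the plus strand. *Cux2* overlaps 2 antisense genes of the annotation, *Gm15637* and *Gm3970*, and *Slc17a7* overlaps *Mir7055* on its own strand. The libraries were stranded, and the part of the overlapping genes in these values was not tested.

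**Figure D1:**
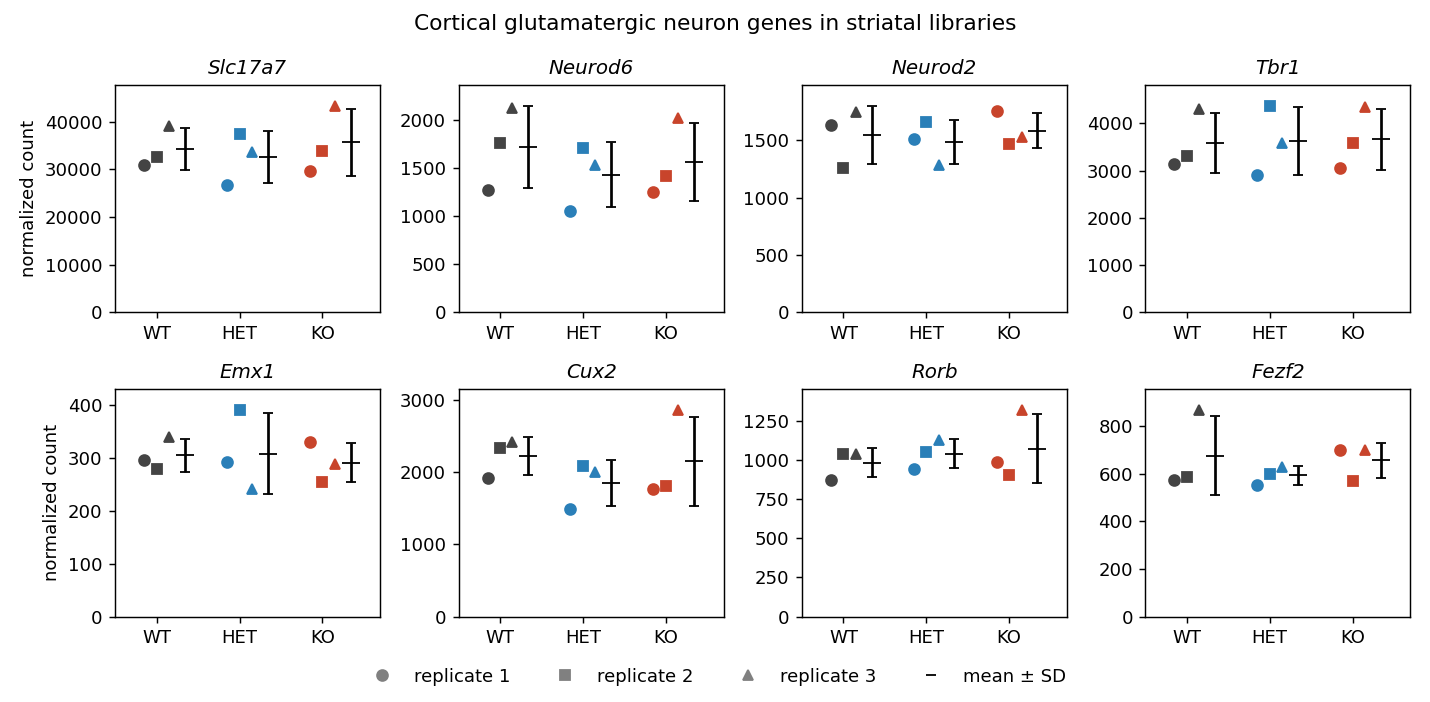
Normalized counts of the 8 members (y axis, from 0) in the 3 WT, 3 HET and 3 KO libraries, with the mean and SD of each genotype beside the points. The libraries of the 3 genotypes overlap for each member, and WT replicate 3 and KO replicate 3 (triangles) were high for most members.

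The members spread somewhat more across libraries than other genes. The ratio of the highest to the lowest library had a median of 1.6 over the 8 members (1.40 to 2.02), against 1.47 over all genes tested and 1.38 over the 10781 genes with a mean of at least 200 normalized counts. WT replicate 3 was among the 3 highest libraries for 7 of the 8 members, against 31.1% of all genes tested, and KO replicate 3 for 6 of the 8, against 40.4%. HET replicate 1 was the lowest library for 5 of the 8 members, against 12.9% of all genes. KO replicate 3 differed from the rest at many genes, being the highest or the lowest library for 16.3% and 16.2% of genes. HET replicate 3, which stood apart with it, was the highest library for 0 members and the lowest for 1, against 20.4% and 19.3% of all genes.

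To set the libraries on a single scale, the offset of each member from its median over the libraries, in log2(normalized count + 1), was averaged over the 8 members. This mean offset was −0.11, −0.01 and 0.27 in WT replicates 1 to 3, −0.24, 0.15 and −0.04 in HET replicates 1 to 3, and −0.04, −0.10 and 0.26 in KO replicates 1 to 3. Each genotype held both a library above 0 and a library below 0, and the SD within genotypes was 0.195. The 55 other genes of the cortical lists had a smaller mean offset, from −0.09 in HET replicate 1 to 0.14 in KO replicate 3. The 15 pan-cortical genes among them had a wider one than the members, from −0.22 in HET replicate 1 to 0.37 in KO replicate 3. The highest library of the members, WT replicate 3, and the lowest, HET replicate 1, lay 0.507 apart, and neither belongs to the pair that stood apart over all genes.

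**Figure D2:**
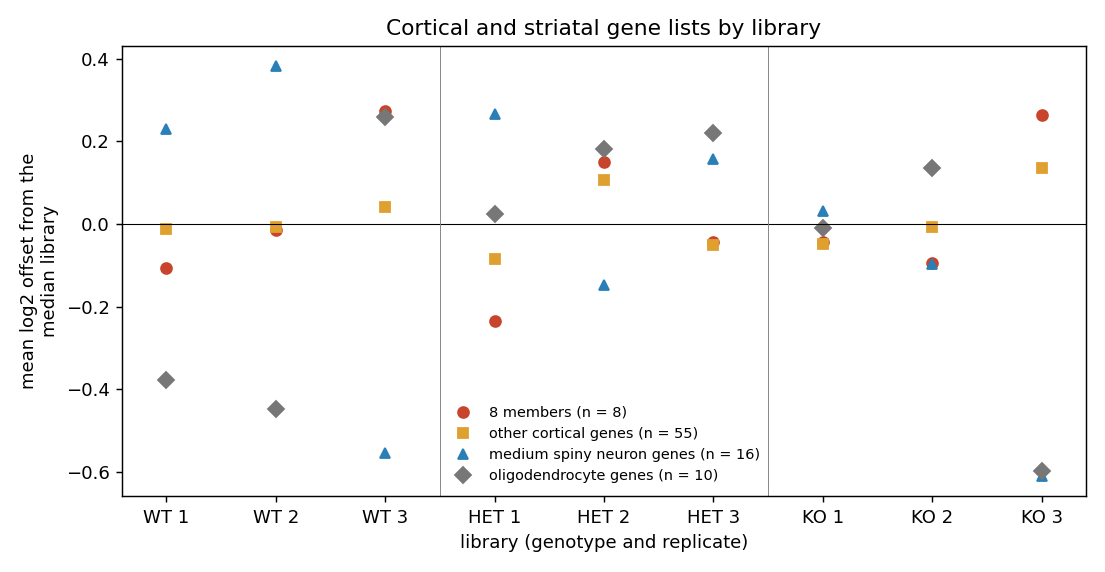
Mean log2 offset from the median library (y axis) of the 8 members, of 55 other cortical genes, of 16 medium spiny neuron genes and of 10 oligodendrocyte genes, in each of the 9 libraries. In WT replicate 3 and KO replicate 3 the members lay at 0.27 and 0.26 and the medium spiny neuron genes at −0.55 and −0.61.

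Whether the members moved together from mouse to mouse was tested by the correlation of each gene with *Slc17a7* over the 9 libraries, on the log2(normalized count + 1) scale. P-values come from an exact permutation test over 362880 pairings (two-sided) and were adjusted by the Benjamini-Hochberg method over 14238 genes. The test treats the 9 libraries as exchangeable and takes no account of the genotypes or of the assumed pairing of HET and KO replicate numbers. *Tbr1* followed *Slc17a7* most closely, with r = 0.95, an exact permutation p of 3.03e-05 and an adjusted p of 0.039, and it was the 1 of 7 members past the adjusted threshold, which 0.253% of all genes passed. Its rank correlation was 0.95, with an exact permutation p of 0.000353 and an adjusted p of 0.0837. *Neurod6* had r = 0.92 (exact permutation p = 0.000601, adjusted p = 0.0748) with rho = 0.87 (p = 0.00451, adjusted p = 0.171). *Cux2* had r = 0.89 (exact permutation p = 0.00166, adjusted p = 0.0923) with rho = 0.83 (p = 0.00827, adjusted p = 0.205). Both of these genes missed the adjusted threshold.

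The other 4 members followed *Slc17a7* less closely. *Rorb* had r = 0.72 (exact permutation p = 0.0290, adjusted p = 0.237) and rho = 0.65 (p = 0.0666, adjusted p = 0.324), and *Fezf2* had r = 0.57 (exact permutation p = 0.113, adjusted p = 0.393) and rho = 0.60 (p = 0.0968, adjusted p = 0.366). *Emx1* had r = 0.19 (exact permutation p = 0.629, adjusted p = 0.816) and rho = 0.067 (p = 0.880, adjusted p = 0.954), and *Neurod2* had r = 0.097 (exact permutation p = 0.801, adjusted p = 0.908) and rho = 0.083 (p = 0.843, adjusted p = 0.943). In all, 4 of the 7 members had an unadjusted exact permutation p under 0.05 with positive r, as did 9.07% of all genes, and 17.3% of all genes had such a p in either direction. The median r was 0.72 over the members and 0.010 over all genes. Between pairs of members, given as a description over the same 9 libraries, *Neurod6* and *Cux2* had r = 0.93 and *Neurod2* and *Emx1* had r = 0.76, while *Neurod2* had r = −0.03 with *Neurod6* and −0.21 with *Rorb*.

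**Figure D3:**
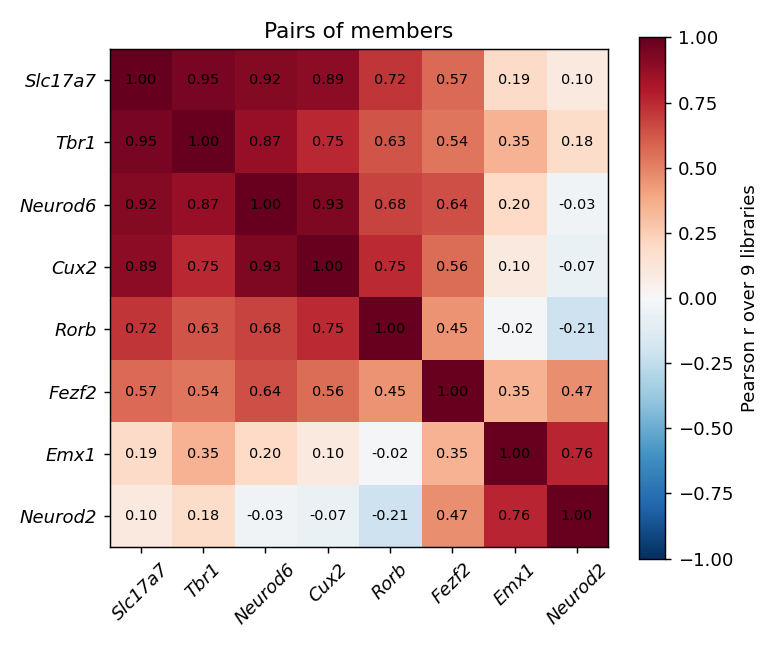
Pearson r of each pair of the 8 members over the 9 libraries, as colour and number, with both axes listing the genes. *Slc17a7*, *Tbr1*, *Neurod6* and *Cux2* form a block of r between 0.75 and 0.95, and *Emx1* and *Neurod2* pair with each other at 0.76.

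The relations were recomputed on fewer libraries. Without KO replicate 3 and HET replicate 1, the libraries farthest from the median of *Slc17a7*, r was 0.98 for *Tbr1*, 0.87 for *Neurod6*, 0.66 for *Cux2*, 0.43 for *Rorb*, 0.45 for *Fezf2*, 0.37 for *Emx1* and 0.14 for *Neurod2*. The values for *Cux2* and *Rorb* rested in part on those libraries. Within genotypes, after the genotype means were removed, r was 0.975 for *Tbr1*, 0.95 for *Neurod6*, 0.93 for *Cux2*, 0.76 for *Rorb*, 0.54 for *Fezf2*, 0.23 for *Emx1* and 0.036 for *Neurod2*. Without HET replicate 3 and KO replicate 3 it was 0.96 for *Tbr1*, 0.92 for *Neurod6*, 0.82 for *Cux2*, 0.53 for *Rorb*, 0.55 for *Fezf2*, 0.43 for *Emx1* and 0.21 for *Neurod2*, with 0 members reaching an adjusted p under 0.05 and 3 having an unadjusted exact permutation p under 0.05. The scaling of the libraries mattered as well. With quantile normalization, r of *Tbr1* was 0.81 (exact permutation p = 0.0124), *Neurod6* 0.63, *Neurod2* 0.57, *Cux2* 0.55, *Emx1* 0.47, *Fezf2* 0.43 and *Rorb* 0.079, with 0 members past the adjusted threshold. The span of *Slc17a7* over the libraries was 0.42 on the log2 scale with that normalization, against 0.70 as deposited.

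Other genes of cortical neurons moved with *Slc17a7* in part. Of the 15 other genes in a list of pan-cortical glutamatergic genes, 14 had r over 0 with a median of 0.60, against 50.7% of all genes. Without HET replicate 3 and KO replicate 3 the count was 13 of 15 (median 0.72), and with quantile normalization it was 11 of 15 (median 0.37). Over all 55 other cortical genes, 37 had r over 0 with a median of 0.39, and 13 were positive and 5 negative at an unadjusted exact permutation p under 0.05, as were 9.07% and 8.19% of all genes. The upper layer list had 9 of 15 genes over 0 (median 0.55), the layer V list 9 of 14 (median 0.27) and the layer VI list 8 of 14 (median 0.24), and without HET replicate 3 and KO replicate 3 these medians were 0.32, 0.16 and 0.26. *Syt6*, a synaptotagmin gene of the layer VI list, ran the other way, with r = −0.94 (exact permutation p = 8.82e-05, adjusted p = 0.045). That is the direction of the medium spiny neuron genes described next. *Crym* (r = −0.91), *Fam84b* (−0.81), *Foxp2* (−0.78) and *Otof* (−0.78) had negative r too, at an unadjusted exact permutation p under 0.05. Which cells of the tissue expressed *Syt6* and the other genes of the cortical lists was not tested.

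The medium spiny neuron genes ran opposite to *Slc17a7*. All 16 of the list had r under 0, against 49.3% of all genes, with a median of −0.77, and 10 of them had an unadjusted exact permutation p under 0.05, as did 8.19% of all genes in that direction. *Drd1*, the D1 dopamine receptor gene, had r = −0.89 (exact permutation p = 0.00126, adjusted p = 0.0848) and *Rgs9*, a regulator of G-protein signalling in the striatum, r = −0.87 (exact permutation p = 0.00183, adjusted p = 0.0972). None of the 16 passed the adjusted threshold. *Rgs9* had 12088, 12461 and 6178 normalized counts in WT replicates 1 to 3, 11721, 8755 and 9055 in HET, and 10101, 8483 and 4775 in KO. Its lowest libraries, KO replicate 3 and WT replicate 3, were the highest for *Slc17a7*. The direction of all 16 genes held without HET replicate 3 and KO replicate 3 (median r = −0.71) and with quantile normalization (median r = −0.71), and with each library left out. In whole tissue, fewer cells of a type and less RNA per cell cannot be told apart, and the share of cortex in each dissection was not tested.

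Lists for other cell types and regions were set beside these. Counts of genes with r over 0 were 8 of 10 for claustrum and piriform cortex (median 0.22), 6 of 11 for hippocampus and amygdala (0.37), 7 of 11 for thalamus and septum (0.22) and 6 of 8 for choroid plexus (0.32). They were 4 of 10 for GABA neurons (−0.22), 1 of 10 for oligodendrocytes (−0.18), 8 of 10 for astrocytes (0.25), 4 of 9 for microglia (−0.39) and 7 of 8 for endothelial and mural cells (0.36). The GABA neuron list also holds *Chat* (r = −0.85), a gene of cholinergic neurons. Without HET replicate 3 and KO replicate 3, the median r was 0.039 for claustrum and piriform cortex, 0.013 for hippocampus and amygdala, 0.49 for thalamus and septum and 0.37 for choroid plexus. It was −0.24 for GABA neurons, 0.40 for oligodendrocytes, 0.27 for astrocytes, −0.13 for microglia and 0.54 for endothelial and mural cells. The oligodendrocyte median thus changed sign with this pair of libraries, while the endothelial and mural median was in the range of the cortical lists. Oligodendrocyte genes separated the high libraries of the members: their mean log2 offset was 0.26 in WT replicate 3 and −0.60 in KO replicate 3. Among the thalamus and septum genes, *Calb2* (calretinin) had 1295 normalized counts in WT replicate 3 and 571 in KO replicate 2, against 142 to 260.5 in the other 7 libraries. *Nr4a2*, a claustrum marker, was at 758 in WT replicate 3, its lowest library, and at 1687 in KO replicate 3. WT replicate 3 and KO replicate 3, close in the mean offset of the members and of the medium spiny neuron genes, thus differed in these markers, and the part of these in the members' values was not tested.

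Base composition was set beside the libraries as a description. Over 14233 genes, the offset of a gene rose with the GC content of its transcript in some libraries. These were KO replicate 3 (Spearman rho = 0.16), WT replicate 2 (0.145) and HET replicate 3 (0.142). It fell in WT replicate 1 (−0.23), HET replicate 1 (−0.16) and KO replicate 1 (−0.13). The trend was thus not particular to HET replicate 3 and KO replicate 3. The members span 41.6% GC (*Rorb*) to 66.8% GC (*Emx1*). In HET replicate 3 and KO replicate 3 together, the mean log2 offset from the other 7 libraries was 0.33 for *Rorb* and 0.26 for *Neurod6* (41.9% GC), and −0.23 for *Emx1* and −0.16 for *Neurod2* (58.7% GC). It was 0.29 for *Cux2* (55.5% GC), 0.23 for *Slc17a7* (56.6% GC), 0.18 for *Tbr1* (51.9% GC) and 0.080 for *Fezf2* (55.9% GC). Over the 8 members alone, rho of offset with GC was −0.62 in KO replicate 3, −0.57 in WT replicate 2 and −0.75 in HET replicate 3. It was 0.86 in WT replicate 1, 0.62 in HET replicate 1 and 0.52 in KO replicate 1. In each of these libraries its sign was opposite to that over all genes. The part of base composition in these values was not tested.

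The genes most like the members in pattern were ranked by Pearson r with the mean of the 8 standardized members over the 9 libraries, as a description. Among the 10 with the highest r were *Frzb* (0.96), *Adamtsl2* (0.96), *Olfm1* (0.96), *Psmb10* (0.95), *Arl2bp* (0.95), *Smyd2* (0.94), *Dpp10* (0.94), *Fgf12* (0.94) and *Cck* (0.94). *Cck*, the cholecystokinin gene, had 5123, 6413 and 7847 normalized counts in WT replicates 1 to 3, 5233, 6843 and 6403 in HET and 5974, 5513 and 8492 in KO. Its highest libraries were KO replicate 3, WT replicate 3 and HET replicate 2, as for *Slc17a7*.

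The genotypes were then compared. The members did not separate the genotypes: in HET against WT, KO against WT and KO against HET, 0 of 8 members passed an adjusted p of 0.05 in limma with Benjamini-Hochberg adjustment over all 14239 genes, as did 0% of all genes in each. The smallest adjusted limma p was 0.81, 0.91 and 0.9999, so *Shank3*, higher in every KO library than in any other, was not called either. With a count model and another correction of p-values, the study reported differentially expressed genes in HET and KO against WT, including *Shank3* in KO. A count of 0 here therefore does not show that no gene differs. At an unadjusted limma p under 0.05 there were 0 of 8 members in each comparison, against 1.11%, 0.822% and 1.31% of all genes (158, 117 and 186 genes). For KO against HET, whose replicate numbers were taken to pair, a replicate block gave 318 genes in place of 186, with 0 members among them. This block was fitted over all libraries, so it also grouped the WT libraries by number, although WT was not taken as paired. The libraries of 2 genotypes overlapped for every member in each comparison, while 4.45%, 4.54% and 4.45% of all genes did not overlap. The 3 comparisons share libraries, so their values are not independent.

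*Slc17a7* had means of 34206 ± 4353 normalized counts in WT, 32511 ± 5426 in HET and 35630.1 ± 6985 in KO (SD, n = 3 each), all within 1 SD of each other. Its log2 fold change was −0.08 (SE 0.179, 95% interval −0.48 to 0.32) in HET against WT and 0.05 (−0.35 to 0.45) in KO against WT. The largest differences in HET were those of *Cux2* and *Neurod6*. *Cux2* had 2217 ± 266 in WT, 1849.6 ± 321 in HET and 2145 ± 618 in KO, with a log2 fold change of −0.27 (SE 0.197, 95% interval −0.71 to 0.17, exact permutation p = 0.3) in HET against WT. *Neurod6* had 1719.8 ± 431 in WT, 1433 ± 342 in HET and 1564 ± 405 in KO, with −0.26 (SE 0.243, 95% interval −0.80 to 0.28, exact permutation p = 0.4). The *Cux2* means differed by more than the SD of either genotype, but both intervals included 0 and the libraries overlapped.

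The other members differed by less. *Tbr1* had 3586 ± 638, 3629 ± 731 and 3670.3 ± 645 normalized counts in WT, HET and KO, and *Neurod2* had 1548 ± 255, 1485 ± 190.2 and 1585 ± 153. *Emx1* had 305 ± 31.6, 308 ± 76.5 and 292 ± 37.6, *Rorb* had 982 ± 94.3, 1039 ± 92.4 and 1069 ± 219.6, and *Fezf2* had 676 ± 167, 593 ± 39.4 and 656 ± 74.8. In KO against WT, the log2 fold changes of the 8 members lay between −0.14 (*Neurod6*) and 0.11 (*Rorb*), with 4 above 0 and 4 below and a median of 0.0052, against 0.0047 for all genes. In HET against WT, 2 were above 0 and 6 below, with a median of −0.067 against −0.0027 for all genes. In KO against HET, 7 were above 0 and 1 below, with a median of 0.11 against −0.00099. Exact permutation p-values lay between 0.3 and 0.9 over the 3 comparisons, and the smallest that 3 against 3 mice can give is 0.1.

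**Figure D4:**
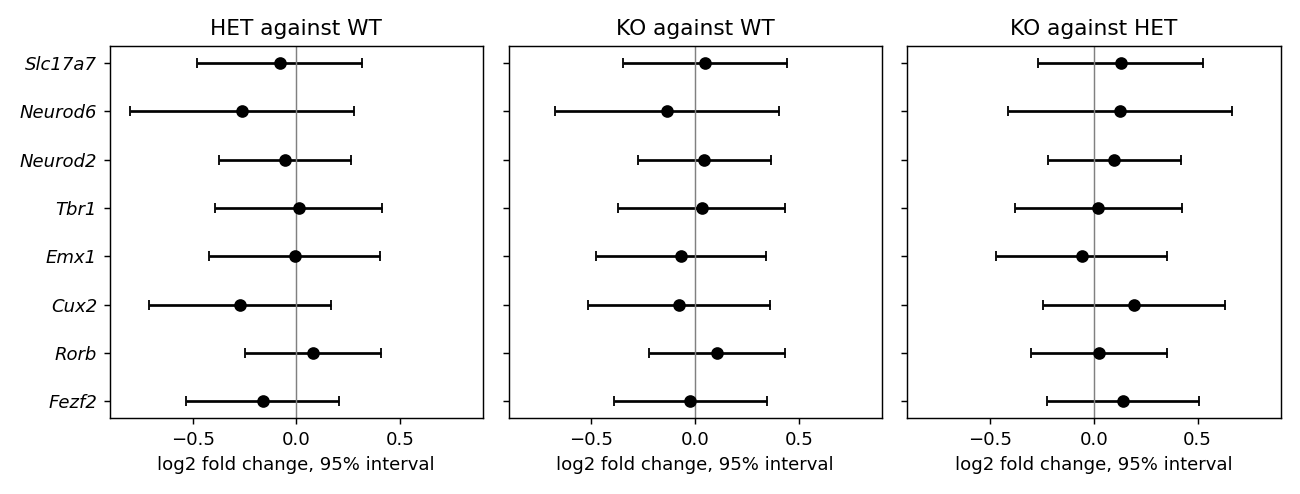
Log2 fold change of the 8 members (x axis, with the 95% interval from limma) in HET against WT, KO against WT and KO against HET. Each interval includes 0, and the widest are those of *Neurod6*.

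The SE of the members' fold changes lay between 0.144 and 0.243 (median 0.18), against a median of 0.152 for all genes, and the widest interval ran from −0.80 to 0.28. Leaving out HET replicate 3 and KO replicate 3 turned the sign of *Slc17a7* (−0.10), *Tbr1* (−0.097) and *Rorb* (−0.053) in KO against WT. No member passed a threshold without them. Among the lists, the 55 other cortical genes had median log2 fold changes of −0.023, 0.044 and 0.033 in HET against WT, KO against WT and KO against HET, with 0 genes past the adjusted threshold in limma. Unadjusted, *Scnn1a* had p under 0.05 in HET against WT and *Bcl6* in KO against HET. The 16 medium spiny neuron genes had medians of 0.083, −0.23 and −0.33, with 11, 1 and 1 of them above 0, and 0 of 16 had an unadjusted limma p under 0.05 in any of the 3 comparisons. In the same comparisons the 10 oligodendrocyte genes had medians of 0.33, 0.028 and −0.30 with 10, 6 and 0 above 0, and the 8 endothelial and mural genes had 0.16, −0.0061 and −0.15 with 8, 4 and 0 above 0. The 9 microglia genes had medians of 0.034, −0.047 and −0.074 with 5, 3 and 1 above 0. None of these genes passed an unadjusted limma p under 0.05. The list medians were not recomputed without HET replicate 3 and KO replicate 3. KO replicate 3 was the lowest library in the mean log2 offset of the medium spiny neuron genes (−0.61) and of the oligodendrocyte genes (−0.60).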

How the data were processed

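Striatal RNA of 9 male mice was sequenced by the authors from TruSeq Stranded mRNA libraries. The deposited signal, normalized counts per gene, was made by the authors with Salmon 0.9.1 on GRCm38 with correction for GC bias, tximport and the size factors of DESeq2 1.19.11 in R 3.6.0, with versions as in the submitters' processing notes. The annotation release is not given in the sources used here. Whole reads were not recovered, so that the depth is unknown and precision comes from the spread between mice. Each column was assigned to its sample through the sample title, and 0 columns were without one.

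Genes with at least 10 normalized counts in at least 3 libraries (14239 of 15464) were fitted as log2(normalized count + 1) with limma 3.58.1 (trend) in R 4.3.3, all 9 libraries in one fit on genotype. Calls were made at a Benjamini-Hochberg adjusted p under 0.05. Fold changes on this scale understate those of low genes. Correlations with *Slc17a7* used exact permutation tests over all pairings in Python 3.11.15, and limma and these tests were tested on simulated data. Symbols were found for 15457 genes. Coordinates and exon lengths come from GENCODE on GRCm38, promoter windows from RefSeq on GRCm38.p6, and figures from matplotlib 3.10.9. For 0 pairs of libraries was any nonzero value shared at a gene.

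The members, the gene lists and the tests were chosen with earlier results of these data known. By rule, the text names all 8 members, the 3 genes of each list with the widest span over the libraries, list genes that pass the adjusted threshold and the 10 other genes most like the members. A few genes that the rule names are not reported here. *Drd1*, *Shank3*, *Ttr*, *Slc17a6*, *Scnn1a*, *Bcl6*, *Crym*, *Foxp2* and *Otof* were named besides for their roles or values. The lists are pan-cortical, upper layer, layer V, layer VI, claustrum and piriform, hippocampus and amygdala, thalamus and septum, choroid plexus, medium spiny neuron, GABA neuron, oligodendrocyte, astrocyte, microglia, and endothelial and mural genes.

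The pairing of replicate numbers was checked by correlating deviations from the genotype means. Between HET and KO the correlations for numbers 1 to 3 were 0.52, 0.28 and 0.51, all above 0.1, and the numbers were taken to pair these 2 genotypes. Between WT and HET they were 0.32, −0.014 and 0.0054, and between WT and KO 0.24, −0.22 and 0.024, so WT was not taken as paired. Within each pair of genotypes these correlations are not independent, because the deviations of a genotype cancel out. HET replicate 3 and KO replicate 3 also stood apart together over all genes. Libraries of unlike number were not correlated, so the pairing of HET and KO is an assumption. What the numbers stand for is not given in the sources used here. Alternatives were other pseudocounts and filters, quantile normalization, a replicate block and leaving out libraries.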

Additional observations from a re-analysis of the deposited data

How the results depend on the processing

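In each of the 3 genotype comparisons, 0 genes, and so 0 of 8 members, passed the adjusted threshold of limma under every alternative run. The replicate block, which also grouped the WT libraries by number, gave 0 genes in each comparison. At an unadjusted limma p under 0.05 it gave 365, 310 and 318, and it turned no member's sign. Without HET replicate 3 and KO replicate 3 together, the log2 fold change turned for *Neurod2* (0.047) and *Emx1* (0.16) in HET against WT, for *Slc17a7* (−0.10), *Tbr1* (−0.097) and *Rorb* (−0.053) in KO against WT, and for *Neurod6* (−0.0093), *Tbr1* (−0.11) and *Rorb* (−0.074) in KO against HET. The cause was not tested. Leaving out each library in turn also turned signs. In HET against WT the values ranged from −0.19 to 0.058 for *Slc17a7*, −0.20 to 0.047 for *Neurod2*, −0.13 to 0.16 for *Tbr1*, −0.19 to 0.16 for *Emx1*, −0.00088 to 0.15 for *Rorb* and −0.27 to 0.032 for *Fezf2*. In KO against WT they ranged from −0.10 to 0.17 for *Slc17a7*, −0.34 to 0.035 for *Neurod6*, −0.097 to 0.14 for *Neurod2*, −0.097 to 0.17 for *Tbr1*, −0.16 to 0.024 for *Emx1*, −0.30 to 0.044 for *Cux2*, −0.053 to 0.22 for *Rorb* and −0.13 to 0.17 for *Fezf2*. In KO against HET they ranged from −0.022 to 0.25 for *Slc17a7*, −0.083 to 0.27 for *Neurod6*, −0.0032 to 0.18 for *Neurod2*, −0.13 to 0.17 for *Tbr1*, −0.22 to 0.13 for *Emx1*, −0.033 to 0.31 for *Cux2* and −0.13 to 0.14 for *Rorb*. The correlation of *Neurod2* with *Slc17a7* ranged from −0.066 to 0.28. The number of members past the adjusted threshold for correlation with *Slc17a7*, 1 with all libraries, was 0 with quantile normalization, 0 without HET replicate 3 and KO replicate 3 together, and 0 to 1 with each library left out, 1 only without HET replicate 3. With fewer libraries the smallest p that the test can give is larger, and r of *Tbr1* lay between 0.94 and 0.97 with each library left out. With quantile normalization, which kept all 9 libraries, r of *Tbr1* was 0.81 with an adjusted p of 0.409. The unadjusted counts of genes ranged from 119 to 394, 72 to 292 and 141 to 303 in the 3 genotype comparisons when each library was left out. Pseudocounts of 0.5 and 5 turned no member's sign. The distance between the highest and lowest library in the members' mean offset was 0.379 without HET replicate 1 and 0.498 with quantile normalization, against 0.507. Depth in reads is unknown, and with 3 mice per genotype changes smaller than the intervals could not be detected.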

Other observations

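The 3 genes of each list with the widest span over the 9 libraries are given with that span, the highest minus the lowest library in log2(normalized count + 1), which was 0.48 to 1.02 for the members. In the pan-cortical glutamatergic list these were *Sstr2* (1.45), *Bhlhe22* (1.43) and *Lhx2* (1.16). For upper layer genes they were *Endou* (2.68), *Lamp5* (1.25) and *Rspo1* (0.99). In the layer V list these were *Qrfpr* (1.40), *Pde1a* (1.04) and *Fam84b* (1.04). For layer VI genes they were *Osr1* (1.81), *Col24a1* (1.31) and *Nxph4* (1.28). In the claustrum and piriform list these were *Nr4a2* (1.32), *Oprk1* (1.18) and *Ntng2* (1.00). For hippocampus and amygdala genes they were *Lct* (1.55), *C1ql2* (1.47) and *Zbtb20* (1.21). In the thalamus and septum list these were *Calb2* (3.18), *Zic1* (1.64) and *Zic4* (1.57). For choroid plexus genes they were *Aqp1* (3.67), *Kcnj13* (3.34) and *Prlr* (2.47). These genes were near the filter of 10, at 5.11 to 76.6, 0.863 to 17.9 and 4.83 to 31.4 normalized counts. *Endou*, *Qrfpr*, *Osr1*, *Lct* and *C1ql2* were also low, none above 89.7, while no member was below 240.9 in any library. Spans at such low counts are less certain and are not comparable with those of the members. In the medium spiny neuron list these included *Rgs9* (1.38) and *Ppp1r1b* (1.36). For the GABA neuron list they were *Chat* (1.41), which is a gene of cholinergic neurons, *Pvalb* (1.22) and *Slc32a1* (0.94). In the oligodendrocyte list these were *Opalin* (1.20), *Mbp* (1.17) and *Cldn11* (1.1). For astrocyte genes they were *Gjb6* (1.30), *Gfap* (1.11) and *Aldoc* (0.90). In the microglia list these included *C1qa* (1.12) and *Aif1* (0.97). For endothelial and mural genes they were *Acta2* (1.5), *Cldn5* (0.78) and *Vtn* (0.78). The *Sstr2* gene, which encodes a somatostatin receptor, had 1650.1 normalized counts in HET replicate 3 and 1830.0 in KO replicate 3, against 667 to 1089 in the other 7 libraries. *Lamp5*, an upper layer gene, was also highest in this pair, with 8492 and 9812 normalized counts against 4128 to 6609 in the other 7. *Pde1a*, of the layer V list, had 7264 and 8752.5 in them, against 4252 to 5876. Other genes of the cortical lists were lowest in this pair. *Fam84b* had 302 and 225 normalized counts in them, against 337 to 464 in the other 7, and *Nxph4* had 83.4 and 76.5, against 91.5 to 187. These genes were singled out after their values were seen. The cortical list genes thus moved in both directions in the pair of libraries that stood apart over all genes, and the part of that separation in these values was not tested.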
